A study of Mus musculus with 2 samples.

Results

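The genes described here are those of the ovarian insulin-like growth factor (IGF) system: the ligand gene Igf1, the receptor genes Igf1r and Igf2r, the binding protein genes Igfbp2, Igfbp3, Igfbp4, Igfbp5 and Igfbp6, and Pappa, which encodes a protease of binding proteins. They were chosen by name, with earlier results of these data known. They are 9 of the 20660 genes that the array's probes named, measured by 13 of 55681 probes. Expression was compared in mouse ovary on 2 arrays, 1 per group. Ovaries of 2-week-old mice, which are sexually immature, were cut lengthwise and the pieces were cultured for 3 days with ligands of the tachykinin receptors (TKRs), each at 1 μM. The agonist group received the TACR1 agonist [Sar9, Met(O2)11]-SP, the TACR2 agonist GR-64349 and senktide, a succinylated substance P fragment that activates TACR3. The antagonist group received an antagonist of TACR1, GR-94800 against TACR2 and SB218795 against TACR3. The study's text describes the antagonists as given all to the same ovaries. For the agonists, the sources used here do not state whether they were combined, and for neither array do they state the mouse strain or how many ovary pieces gave the RNA. No array of untreated ovary was analysed here, so each ratio sets agonists against antagonists and does not show which of the groups departed from untreated tissue.

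IGF1 is a growth factor that, in rodent ovaries, is made mainly by granulosa cells and acts with follicle-stimulating hormone on granulosa cell growth and steroid synthesis. It signals through the tyrosine kinase receptor IGF1R, whereas IGF2R binds chiefly IGF2 and carries it to lysosomes. Binding proteins hold IGFs in the extracellular fluid and limit or prolong their access to the receptor, and proteases such as pregnancy-associated plasma protein A, the product of Pappa, cut some of them and free the ligand. Tachykinins are small neuropeptides, among them substance P and the neurokinins, whose receptors couple to G proteins.

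Values are the processed signals of the scanner software, in intensity units. The log2 ratio is agonists minus antagonists after each array was divided by the 75th percentile of its own signals, 672 with the agonists and 569 with the antagonists. The 15258 genes well above background on both arrays had a median of -0.10 on this scale, with an SD over genes of 0.48 and 5th and 95th percentiles of -0.56 and 0.89. The scanner software's error amounted to 0.20 to 0.21 on the log2 ratio of every member. On bright spots this error was close to a fixed share of the signal, and so not a measured spread. With the agonists it was 582.1 at 5821 for Igfbp3 and 1585.9 at 15859 for Igfbp5. The measured SD between spots had a median of 0.07 over 285 probes with 10 spots. Both the error and the SD concern the spots alone. With 1 array per group, the spread between ovaries is unknown and no difference has a replicate check or a test. All 26 spots of the 9 genes were well above background on both arrays, and none was saturated. Signals of different probes are not comparable as levels, because each probe binds with its own efficiency.

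Igf1 lay close to the middle of all genes. The probe with the brightest signal, on transcript NM_010512 like the other probes of the gene, gave 4211 and 4300 in its spots with the agonists and 4149 and 3615 with the antagonists. Its log2 ratio was -0.11, with an SD between spots of 0.16. The unscaled log2 ratio of this probe was 0.14, so the direction turned with the scaling, between -0.16 and 0.17 over 11 ways of processing. Of all genes, 51.3% had a ratio at least as high.

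The other probes of Igf1 gave log2 ratios from -0.37 to 0.03. On the second probe the spots read 4076 and 4140 with the agonists and 3688 and 3938 with the antagonists, and the log2 ratio was -0.13. The third read 3361 and 3415 with the agonists and 3849 and 3563 with the antagonists, lower with the agonists before and after scaling, at -0.13 and -0.37. The last read 132.8 and 151.7 with the agonists against 124.9 and 110.6, a log2 ratio of 0.03 with an SD of 0.26.

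Both receptor genes also lay at or below the median of all genes. Igf1r (NM_010513), the signalling receptor, read 5483 with the agonists and 5802 with the antagonists on its single spot. The log2 ratio was -0.32 with a software error of 0.20. Its ratio stayed below 0 in all 11 ways of processing, from -0.38 to -0.05, and 18.4% of genes had a ratio as low or lower. Igf2r (NM_010515) was the best measured member, with 10 spots. Its signal ranged from 1976 to 2252 with the agonists, with a median of 2122, and from 1868 to 2060 with the antagonists, with a median of 1951. The spots of the groups overlapped. The mean was 2112 ± 96.4 (SD, 10 spots) with the agonists and 1943 ± 57.5 with the antagonists, and the log2 ratio was -0.12 with an SD between spots of 0.08. As for Igf1, the sign of Igf2r turned with the scaling, from -0.18 to 0.15, and is therefore not given a direction.

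**Figure D1:**
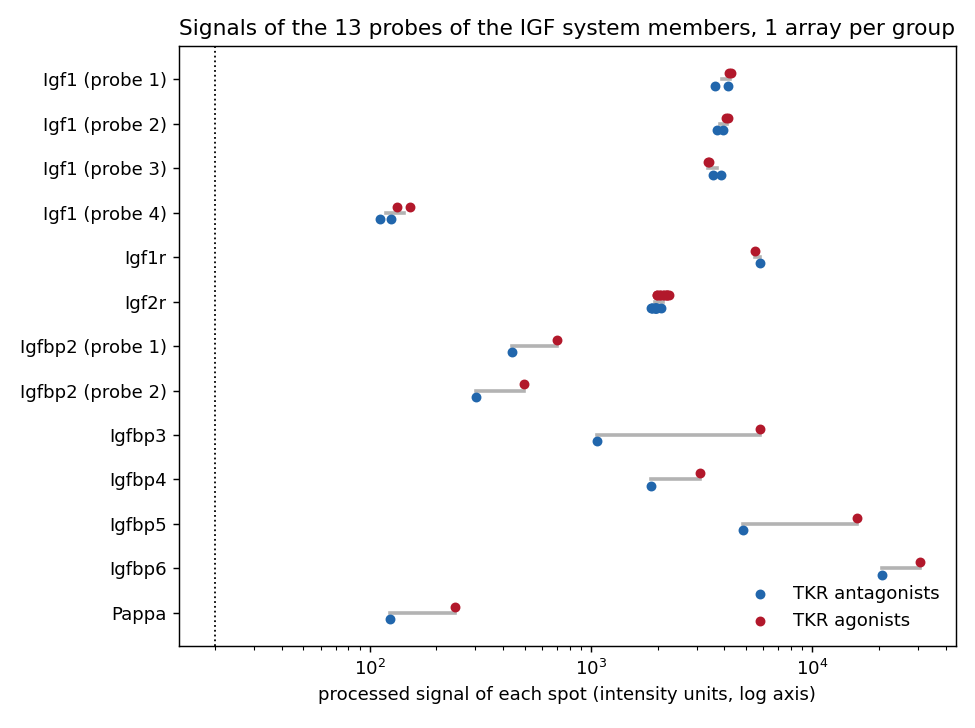
Processed signal of every spot of the 13 probes of the 9 genes, in intensity units on a log axis, for the TKR agonist array (red) and the TKR antagonist array (blue), with a grey bar between the means and a dotted line at the lowest signal called well above background with the antagonists (19.9). Igfbp3 and Igfbp5 show the widest gaps, 5821 against 1058 and 15859 against 4852, whereas the spots of Igf2r overlap.

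All 5 of the chosen binding protein genes were higher with the agonists, with log2 ratios from 0.33 to 2.22. Of all genes, 37.7% had a ratio above 0, a share that rose to 76.0% with spike-in scaling. Outside the chosen genes, Igfbp1 had a log2 ratio of -0.21 and Igfbp7 of 0.11. Igfbp3 and Igfbp5 were more than 2-fold higher. Igfbp3, which encodes the main IGF carrier of the circulation and is also made locally, read 5821 with the agonists and 1058 with the antagonists on its single spot (NM_008343). The log2 ratio was 2.22, or 4.65-fold, with a software error of 0.20, and 0.465% of genes had a ratio at least as high. Without scaling the signals themselves differed 5.50-fold. The local background at this spot was 35 and 40, far under both signals.

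Igfbp5, whose product binds extracellular matrix as well as IGFs, was the second gene past 2-fold. Its spot (NM_010518) read 15859 with the agonists against 4852, which made a log2 ratio of 1.47, or 2.76-fold, and 1.69% of genes had a ratio at least as high. The ratio of Igfbp5 lay between 1.41 and 1.74 over the 11 ways of processing, and that of Igfbp3 between 2.15 and 2.49.

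The remaining binding protein genes showed smaller ratios, each above its software error. Igfbp4 (NM_010517), whose product is the best known substrate of the Pappa protease, read 3096 with the agonists against 1857, for a log2 ratio of 0.50, or 1.41-fold. Igfbp2 (NM_008342) had a pair of probes with 1 spot each. They read 700.3 against 437.7 and 496.3 against 300.8, and their log2 ratios of 0.44 and 0.48 differed by less than the software error of 0.20 to 0.21. Igfbp6 (NM_008344), whose product prefers IGF2 over IGF1, read 30684 against 20667, a log2 ratio of 0.33, or 1.26-fold. Ratios of this size were common: 11.1% of all genes reached that of Igfbp4, 12.4% that of Igfbp2 and 16.0% that of Igfbp6.

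Pappa (NM_021362) was higher with the agonists too, but dim. Its spot read 242.6 with the agonists and 122.7 with the antagonists, the latter 6.17 times the lowest signal called well above background on that array. The log2 ratio was 0.74, or 1.67-fold, with a software error of 0.21. It ran from 0.43 under normexp, which here also used another spot signal and an offset, to 1.02 under spike-in scaling.

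**Figure D2:**
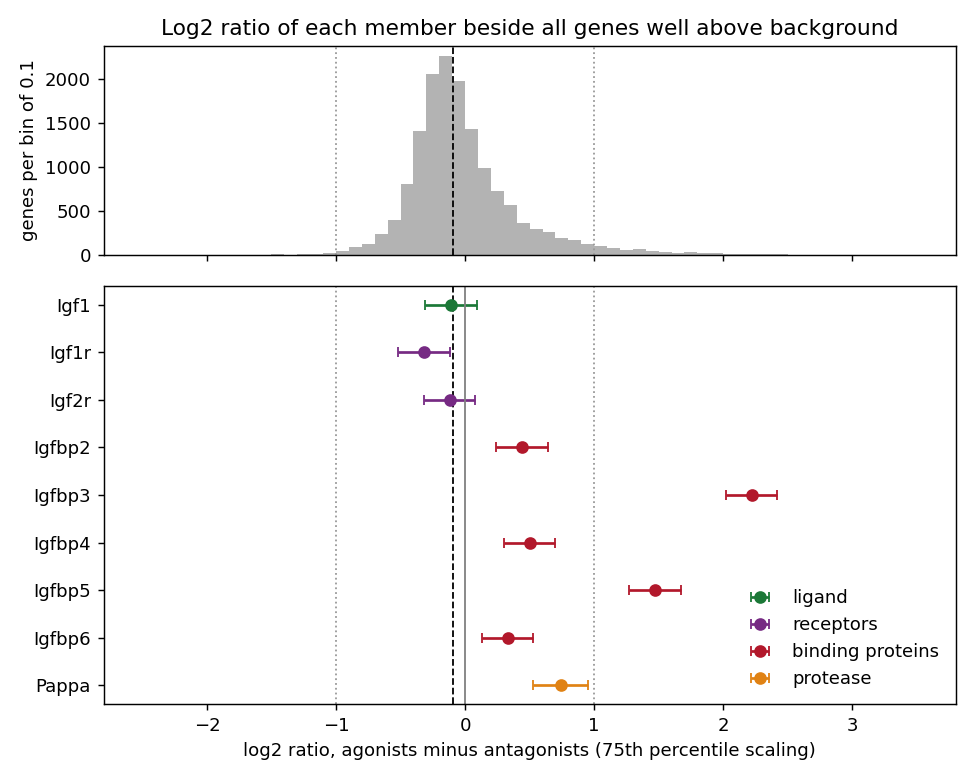
Log2 ratio of the 9 genes (lower panel, coloured by role, bars ± the software's error of the spot) below the number of all 15258 genes per bin of 0.1 (upper panel). The dashed line is the median of all genes, -0.10, and dotted lines mark 2-fold. Igf1 and Igf2r, whose sign turns with the scaling, and Igf1r lie between -0.32 and -0.11, and the binding proteins and Pappa between 0.33 and 2.22.

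By counts, 6 of the 9 genes had a log2 ratio above 0, where 37.7% of all genes did. Both counts moved with the scaling, since Igf1 and Igf2r lie near 0: they were 8 of 9 and 71.7% without scaling, 8 of 9 and 51.9% with loess, and 8 of 9 and 76.0% with spike-in scaling. At least 1.5-fold higher with the agonists were 3 of 9 (Igfbp3, Igfbp5 and Pappa), against 9.26% of all genes, and at least 2-fold higher were 2 of 9, against 4.01%. None was at least 2-fold lower, against 0.577% of all genes. The median over the 9 genes was 0.44, beside -0.10 over all genes. By role, the median was 0.50 over the 5 binding protein genes and -0.12 over Igf1, Igf1r and Igf2r.

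A ratio of ratios within the arrays does not move with a factor that multiplies a whole array. Relative to Igf1, Igfbp3 was higher with the agonists by 2.32 on the log2 scale, or 5.01-fold, and Igfbp5 by 1.57, or 2.98-fold. For Pappa the difference was 0.85, for Igfbp4 0.60, for Igfbp2 0.54 and for Igfbp6 0.43. Igf2r differed from Igf1 by -0.02 and Igf1r by -0.22. Among the chosen genes, the lowest of the binding proteins and Pappa stood above the highest of Igf1, Igf1r and Igf2r by 0.43. Scaling by 1 factor per array cannot change this gap. Under the settings that can, which are quantile and loess normalization, normexp, and other averages over spots or probes, it was 0.41 to 0.45, always from the same 2 arrays. These settings take Igf1 from its brightest probe or as a mean over its probes. The dim probe of Igf1, at 0.03, came closer to Igfbp6, at 0.33, and these ratios had software errors of 0.21 and 0.20. The gap did not extend to genes of the family outside those chosen. Igfbp1, a dim gene with a software error of 0.32, differed from Igf1 by -0.10, and Igfbp7 by 0.22. The insulin receptor gene Insr and its relative Insrr differed from Igf1 by 0.56 and 0.91, which lay among the values of the chosen binding proteins.

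**Figure D3:**
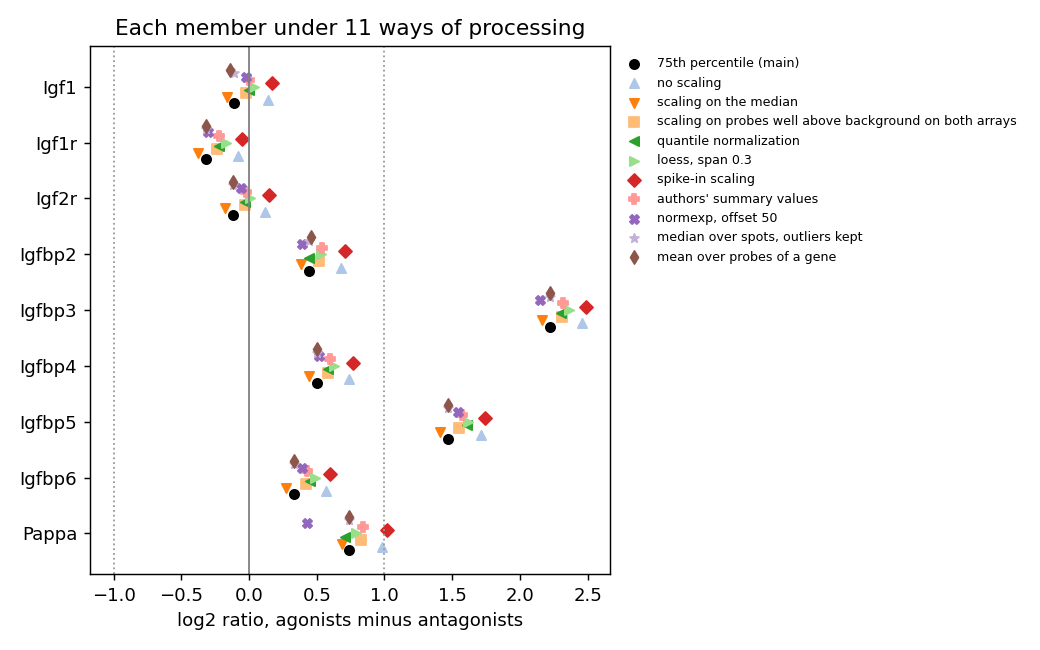
Log2 ratio of each of the 9 genes under 11 ways of processing (1 symbol each). The symbols of Igf1 and Igf2r fall on both sides of 0, those of Igf1r below it, and those of the binding proteins and Pappa above it. Igfbp3 and Igfbp5 stay past the dotted line of 2-fold, and Pappa reaches it under spike-in scaling alone, at 1.02.

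The sequences just upstream of the transcription start are shown for the genes with the largest ratios, Igfbp3 and Igfbp5, and for both receptors, so that the windows of genes with large and small ratios can be read together. They are the last 110 bases before the start in RefSeq (GRCm38.p6), 5′ to 3′ on the gene's strand: Igfbp3 at chr11:7213924-7214033, minus strand, Igfbp5 at chr1:72874866-72874975, minus strand, Igf1r at chr7:67952147-67952256, plus strand, and Igf2r at chr17:12769707-12769816, minus strand. Capitals mark a match to TATANA, the core of a TATA box, or to GGGCGG, a GC box, on either strand, with overlapping matches joined.
Igfbp3: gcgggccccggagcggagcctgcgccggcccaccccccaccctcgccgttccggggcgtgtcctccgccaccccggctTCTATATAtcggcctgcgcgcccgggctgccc
Igfbp5: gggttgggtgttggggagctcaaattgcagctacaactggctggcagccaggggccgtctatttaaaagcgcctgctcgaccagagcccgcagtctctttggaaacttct
Igf1r: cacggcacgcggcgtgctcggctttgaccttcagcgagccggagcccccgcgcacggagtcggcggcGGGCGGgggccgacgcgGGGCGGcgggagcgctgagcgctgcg
Igf2r: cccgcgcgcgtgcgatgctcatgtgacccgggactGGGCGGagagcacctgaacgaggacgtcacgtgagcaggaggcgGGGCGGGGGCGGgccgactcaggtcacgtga

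Entries were given for 8 of the 9 genes, and the 250 bases before the start were searched. TATANA was present in Igfbp3, Igfbp4 and Igfbp6, and in 22.6% of 32851 promoter windows of the mouse. GGGCGG was present in 1 of the 2 windows of Igfbp2 and in those of Igf1r and Igf2r, as it was in 32.7% of all windows. The windows of Igfbp5 and Igf1 held no match to either pattern, and variant forms of these boxes were not searched. TTCNNNGAA, the core that STAT factors bind, was found in none of the members' windows and in 7.0% of all. These are matches of letters and show no binding. In the genome Igfbp2 lies next to Igfbp5 and Igfbp3 next to Igfbp1, by RefSeq's order of protein coding genes. The neighbours differed in ratio: 0.44 against 1.47 in the first pair, and 2.22 against -0.21 in the second, where Igfbp1 was dim at 37.7 and 36.8 and had a software error of 0.32 and a sign that turned with the scaling.

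Of 17 further genes of the pathway, 13 were well above background on both arrays, 11 of them with a log2 ratio above 0 and 2 at least 2-fold higher, beside the 37.7% and 4.01% of all genes given above. Their median was 0.32 and their range -0.72 to 1.40. Stc2 and Stc1, which encode stanniocalcins, inhibitors of the Pappa protease, were those past 2-fold. Stc2 read 367 with the agonists against 141, for a log2 ratio of 1.13, and Stc1 read 64.7 and 20.7, a log2 ratio of 1.40 with a software error of 0.36. Under normexp, which weighs dim spots otherwise, these became 0.83 and 0.34, both under 2-fold. Htra1, a serine protease that can cut binding proteins, was the lowest of the list at 33224 against 46244, a log2 ratio of -0.72, and 2.20% of genes had a ratio as low or lower.

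The insulin receptor gene Insr read 458.6 with the agonists against 283.0, 172.5 against 71.5 and 205.3 against 127.2 on its probes, with log2 ratios of 0.45, 1.03 and 0.45. Its relative Insrr read 78.5 against 38.1 and had a log2 ratio of 0.80, between 0.10 and 1.08 over the ways of processing. Among adaptors that bind these receptors, those that pass the signal on had log2 ratios of 0.16 (Irs1, brightest probe), 0.21 (Irs2), 0.32 (Irs3) and 0.11 (Shc1). Grb14 and Grb10, which are known to restrain it, had 0.33 and 0.49. A dimmer probe of Irs1 read 154.6 against 89.2, a log2 ratio of 0.55, above those of Grb14 and Grb10. Irs3 was dim as well, at 111.7 against 75.5. Igfbp7, a low-affinity relative of the binding proteins, was at 0.11. Igf2, an imprinted gene that encodes the other IGF ligand, read 42.2 with the agonists and 15.6 with the antagonists, where it was not well above background. After scaling, the agonist signal was at least 1.79-fold that of the antagonists, taking for the latter the lowest signal that was called well above background on that array. One probe of Pappa2, likewise well above background with the agonists alone, was at least 1.63-fold higher by the same rule (38.4 against 15.6), and the other was not well above background on either array. Igfals and Igfbpl1 were not well above background on either array.

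**Figure D4:**
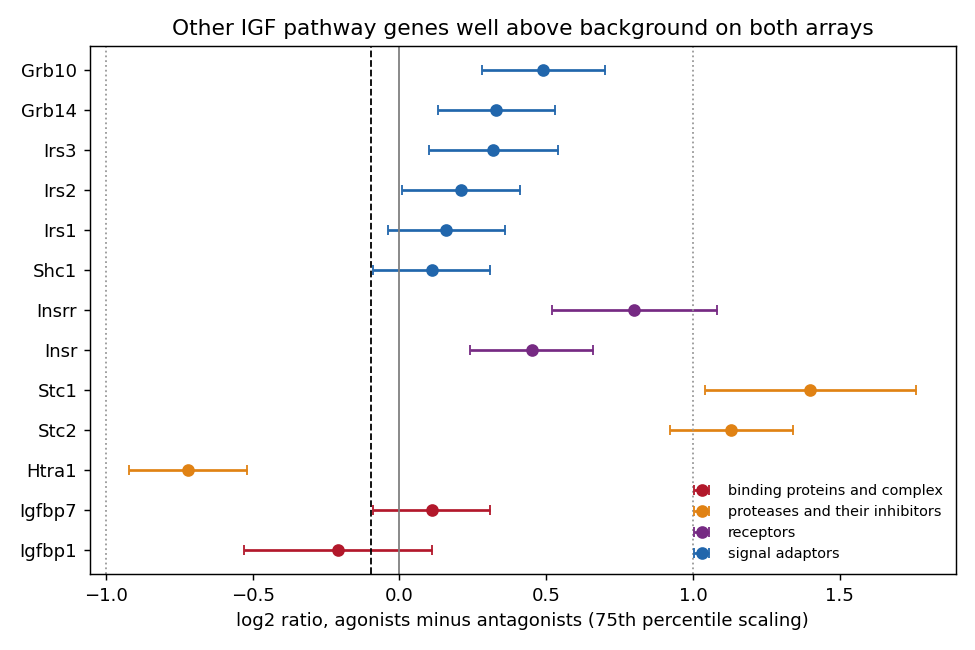
Log2 ratio of the 13 other pathway genes well above background on both arrays, by role, with bars ± the software's error and the median of all genes (-0.10) as a dashed line. Stc1 (1.40) and Stc2 (1.13) lie past the dotted line of 2-fold, Htra1 (-0.72) is lowest, and the sign of Igfbp1 turns with the scaling.

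In whole ovary pieces, fewer cells of a type and less RNA per cell cannot be told apart, and marker genes of several cell types differed between the arrays beside the binding proteins. Markers of the tissue were present: those of granulosa cells (12 of 12) and oocytes (7 of 7) were well above background on both arrays, whereas of the 4 liver markers, Cyp2e1 and Ttr were well above it on both and Alb and Cps1 were not. Granulosa cell markers had a median log2 ratio of -0.47, with 10 of 12 below 0, 1 at least 2-fold lower and a range of -1.17 to 0.37 (summed signal 88679 with the agonists against 106969). Oocyte markers had 0.16, with 4 of 7 above 0, from -0.13 to 0.29 (149026 against 130644). Surface epithelium markers had a median of 1.01, with 6 of 6 above 0, a range of 0.62 to 1.40 and a summed signal of 24965 with the agonists against 9909. Macrophage markers had 1.18, with 5 of 5 above 0, from 0.15 to 1.82 (summed signal 8240 against 5255). Smooth muscle markers had 0.71, with 4 of 4 above 0, from 0.60 to 0.99 (25412 against 13158). Endothelial markers had 0.48, with 4 of 5 above 0, from -0.27 to 0.93, and Tek, the remaining marker of that list, was well above background with the agonists alone. Stromal markers had 0.38, with 7 of 8 above 0, from -0.30 to 0.77 (279372 against 197690). Theca markers had -0.10 over 4 genes, from -0.41 to 0.79, and Lhcgr was not well above background. The ratios of Igfbp4, Igfbp2 and Igfbp6 lay within the ranges of the stromal, theca, endothelial and macrophage markers, so they single out none of these. That of Igfbp6 lay within the range of the granulosa cell markers too. The ratios of Igfbp3 and Igfbp5 lay above the stromal, theca and endothelial ranges. Igfbp5 lay within the range of the macrophage markers and just above the highest surface epithelium marker. Igfbp3 was above every marker in these lists that was well above background on both arrays. The part of the cell types in the ratios of the IGF genes was not tested.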

How the data were processed

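Total RNA of cultured ovary pieces was labelled with Cy3 and hybridised to 1-colour Agilent SurePrint G3 mouse arrays, both on 1 slide. The authors deposited 1 scanner file per array, whose processed signal is a background-subtracted intensity made by Agilent Feature Extraction 10.10.1.1. They also deposited a table of summary intensity values, which equal the processed signal times 1 constant per array. Groups came from the labels.

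Probes were named through RefSeq accessions (27235 of 55681 probes). Signals were divided by each array's 75th percentile over spots that are not controls, put on the log2 scale, and averaged over a probe's spots without outlier spots. A probe was kept if over 50% of its spots were well above background on both arrays, and the brightest probe stood for its gene. The fold threshold was 2. Each array had 65.4% (agonists) and 61.6% (antagonists) of spots well above background, and the 8 spike-in probes had unscaled log2 ratios of -0.09 to 0.15. The number of arrays limits the precision. Alternatives were other scalings (none, median, probes well above background, quantile, loess with span 0.3, spike-ins), the summary values, normexp with offset 50 on median spot signals, other averages, no filter and 1.5-fold. Python 3.11.15, R 4.3.3 and limma 3.58.1 were used, and the calculation of ratios was checked on simulated signals. No test was made between the groups. All 9 genes and every pathway gene are named, and the marker lists are given by counts, median and range. The motifs searched in promoters were altered after first matches were seen, so they are description only. The genes and lists were chosen with earlier results of these data known.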

Additional observations from a re-analysis of the deposited data

How the results depend on the processing

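The paper describes cutting ovaries into symmetrical pieces to limit errors from using different ovaries. Whether the arrays hold matching pieces of the same ovaries is not stated. Because a group holds a single array, no paired analysis or test was possible. Leaving out an array leaves no ratio. Among the 9 genes, 2 were at least 2-fold higher in every setting at that threshold except spike-in scaling, where Pappa made it 3. Without scaling, the median of the 9 genes was 0.68 and that of the other pathway genes 0.57, and with spike-in scaling they were 0.71 and 0.60, against 0.44 and 0.32. The number of other pathway genes at least 2-fold higher went from 2 to 0 under normexp and to 5 with no filter on dim probes, which adds genes to those counted. At 1.5-fold, 1 of them was lower, against 0 at 2-fold. The unscaled median of all genes was 0.15 and the spike-in scaled one 0.18, against -0.10, and members are best read against that shift. Of 220 single-gene values under alternatives, 177 moved by less than the software's error and 43 by more, and none of a gene past 2-fold changed sign. Scalings by 1 factor per array shift all genes alike, so bright genes, whose software error was nearly the same, pass that error together. These counts therefore partly reflect the size of such shifts. Other averages leave a gene with 1 spot unchanged. The 220 values are therefore not independent. Over all genes, 612 were at least 2-fold higher and 88 lower. These were 992 and 39 without scaling, 1054 and 35 with spike-ins, 323 and 33 under normexp, 1349 and 554 with no filter, and 1413 and 653 at 1.5-fold. With the summary values, 58 were lower. The cause was not tested. Signal near background limits Stc1, Insrr, Igfbp1, Irs3 and Pappa.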
